A study of Mus musculus with 6 samples.

Results

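The miRNAs described here are the mature products of 3 mouse hairpins, miR-146a, miR-146b and miR-155, which are known as miRNAs induced by inflammatory signals. They were chosen by name, both arms of each hairpin included, and 6 of the 1039 rows of the table were found in this way, among 762 rows with mouse names. Liver small RNA was sequenced in 6 wild type ICR mice that were 30 weeks old, and ICR is an outbred stock. All 6 mice had been fed a high-fat diet (HFD) for 12 weeks before gavage and stayed on it. The J group (n = 3) then received JTXK granule, a Chinese herbal formula for diabetes, by gavage for 8 weeks, and the M group (n = 3) received sterile water for the same time. Each library came from a different mouse and from whole liver. Levels are given as RPM, the reads of a miRNA scaled to 1000000 miRNA reads of its library, and the libraries held 2626353 to 4314134 miRNA reads. Chow-fed mice were not analysed here, so a level in the M group says nothing about how far the diet itself had moved it.

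miRNAs are short RNAs that are cut from hairpin transcripts, and the arm that is loaded into Argonaute pairs with target mRNAs through its seed, the bases near its 5′ end. Transcription of the genes of miR-146a and miR-155 is raised by NF-κB, the transcription factor that acts downstream of Toll-like and cytokine receptors. miR-146a and miR-146b are known as brakes on this pathway, because they repress the adaptor proteins TRAF6 and IRAK1. miR-155 is known as a largely pro-inflammatory miRNA of activated macrophages and lymphocytes, and the inositol phosphatase SHIP1 and the cytokine signalling inhibitor SOCS1 are among its targets. In liver these miRNAs are best known from Kupffer cells and infiltrating leukocytes, although other liver cells make them too.

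The mature sequences are shown because the comparison turns on which of the miRNAs share a seed. They were taken from RefSeq (GRCm38.p6), where all 6 were found, and are written 5′ to 3′ with the seed, bases 2 to 8, in capitals.
mmu-miR-146a-5p: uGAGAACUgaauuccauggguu
mmu-miR-146b-5p: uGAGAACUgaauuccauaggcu
mmu-miR-155-5p: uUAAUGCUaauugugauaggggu
mmu-miR-146a-3p: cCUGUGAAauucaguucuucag
mmu-miR-146b-3p: gCCCUAGGgacucaguucuggu
mmu-miR-155-3p: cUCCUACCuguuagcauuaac
The 5p arms of miR-146a and miR-146b had the same seed, and no other mouse miRNA of the RefSeq table had it. The seed of mmu-miR-155-5p was found in no other mouse miRNA of that table either. The 3p arms of the miR-146 hairpins had different seeds and were identical at 4 of 22 positions when compared base by base with no shift.

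The 5p arms of the miR-146 hairpins were identical at 20 of 22 positions, and the bases that differ are in capitals here, since they are all that a read can use to tell these miRNAs apart.
mmu-miR-146a-5p: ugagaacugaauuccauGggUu
mmu-miR-146b-5p: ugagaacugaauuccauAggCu
Counted from the 5′ end, the changes from miR-146a to miR-146b were G18A and U21C. A read that ends before base 18 fits both, and how the authors assigned such reads is not given in the sources used here. The values of these miRNAs are therefore uncertain as far as reads were shared between them.

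The genes lie on different chromosomes (GRCm38, GENCODE annotation, while the processing notes of the submitters name mm9). Mir146, the gene of miR-146a, lies at chr11:43374397-43374461 on the minus strand and overlapped no other annotated gene. Mir146b lies at chr19:46342762-46342870 on the plus strand, in an intron of the protein-coding gene Mfsd13a on the same strand. Mir155 lies at chr16:84714140-84714204 on the plus strand, in an exon of its noncoding host transcript Mir155hg.

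The miRNAs of the miR-146 seed were lower in the J group than in the M group, and for mmu-miR-155-5p the groups overlapped. mmu-miR-146a-5p had 4.19 times and mmu-miR-146b-5p 2.90 times as high a mean RPM in the M group as in the J group. Without M group replicate 1, these ratios were 2.55 and 2.53 (the ratios without it were added after the data were seen), so the larger ratio of mmu-miR-146a-5p rested on that library. For both, each of the 3 J libraries was below each of the 3 M libraries, which held for 9.31% of the 548 miRNAs tested. mmu-miR-155-5p, the product of the hairpin with the other seed, was rare, with 6 to 31 reads in a library. The 3p arms had 0 to 3 reads in every library. The test was limma on log2(RPM + 1), a linear model with variances moderated across miRNAs, over the 548 miRNAs with a mean above 1 RPM in at least one group. A miRNA was called where its log2 fold change exceeded 0.3 in size with p under 0.05 before adjustment. Of the 3 tested members 2 were called lower in the J group, and of all 548 miRNAs 3.83% were called lower and 1.46% higher. These members were also called lower by edgeR, where 4.93% of all were, and by DESeq2, where 4.2% were. The direction of the calls over all miRNAs depended on scaling, with 8 higher and 21 lower as deposited, 17 and 13 after median-of-ratios scaling, and 17 and 12 after quantile normalization, and the 2 members were among the lower ones each time. After Benjamini-Hochberg adjustment over all 548, 0 passed 0.05 in limma (29 before adjustment), 0 in edgeR on the recovered reads (45 before) and 2, or 0.365%, in DESeq2 (36 before).

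mmu-miR-146a-5p, the more abundant product of the shared seed, had 236, 225 and 262 RPM in J group replicates 1, 2 and 3 (1019, 807 and 734 reads). In M group replicates 1, 2 and 3 it had 1798, 845 and 384 RPM (4721, 2882 and 1650 reads). The J libraries lay close together and the M libraries were spread widely, with the lowest M library still above the highest J library. The J mean was 241 ± 18.7 RPM (SD, n = 3) and the M mean 1009 ± 721 RPM (SD, n = 3). The log2 fold change was -1.79 (standard error 0.51, 95% interval -2.98 to -0.60), with an unadjusted p of 0.00905 and an adjusted p of 0.551 from limma. It was therefore called, and did not pass the correction for 548 tests.

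M group replicate 1 had 2.13 times the mmu-miR-146a-5p level of the next highest library. This library stood apart more widely: 30 of the 548 miRNAs were at least 4-fold above every other library in it, against 0 to 3 in each of the other libraries. Its label in the sample titles, MX1_3, also differs in prefix from those of the other M libraries, MX2_2 and MX2_3. What the prefix stands for is not given in the sources used here. Without M group replicate 1, the log2 fold change of mmu-miR-146a-5p was -1.24 (adjusted p = 0.607 from limma) and the miRNA was still called, as 4.24% of the 519 miRNAs then tested were in this direction. Without M group replicate 3, the M library nearest to the J group, it was -2.35 (adjusted p = 0.132).

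mmu-miR-146b-5p, which carries the same seed from another chromosome, had 143, 81.0 and 140.5 RPM in J group replicates 1, 2 and 3 (617, 290 and 394 reads). It had 442, 355 and 260.5 RPM in M group replicates 1, 2 and 3 (1162, 1210 and 1119 reads). Every M library was above every J library, J group replicate 2 was the lowest of all, and no single M library stood far from the other M libraries. The J mean was 121 ± 35.1 RPM (SD, n = 3) and the M mean 353 ± 91.0 RPM (SD, n = 3). It had the smallest p of all 548 miRNAs in limma, 0.00163, with a 95% interval of the log2 fold change of -2.29 to -0.80 around -1.54, and an adjusted p of 0.42. M group replicate 1 was 1.25 times the next highest library, and without it the log2 fold change was -1.36.

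**Figure D1:**
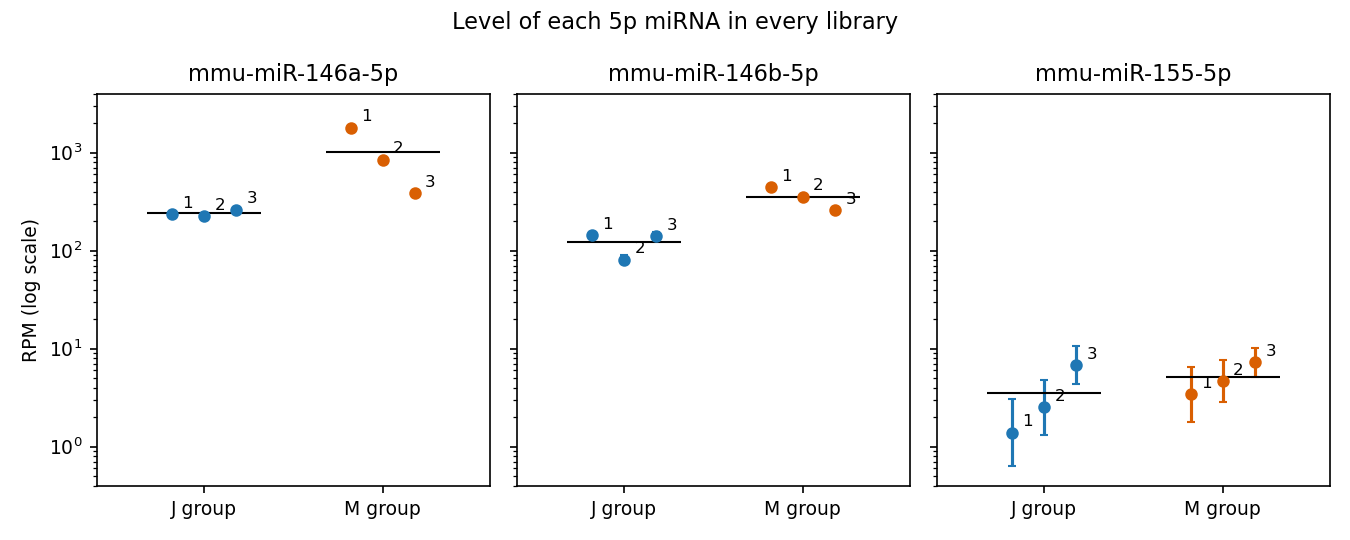
RPM on a log scale for each 5p miRNA, with a point for every library (the number is the replicate), bars for the 95% Wilson counting interval (smaller than the point for most miR-146 values) and a line at the group mean. The J and M libraries do not overlap for mmu-miR-146a-5p and mmu-miR-146b-5p and do overlap for mmu-miR-155-5p.

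mmu-miR-155-5p had 1.39, 2.51 and 6.77 RPM in J group replicates 1, 2 and 3 (6, 9 and 19 reads). In M group replicates 1, 2 and 3 it had 3.43, 4.69 and 7.22 RPM (9, 16 and 31 reads). J group replicate 3 lay above M group replicates 1 and 2, so the groups overlapped, and M group replicate 1, the highest library for both miR-146 miRNAs, was the lowest of its group here. The means of 3.56 ± 2.84 RPM (SD, n = 3) and 5.11 ± 1.93 RPM (SD, n = 3) gave -0.56 as log2 fold change (SE 0.50; limma, adjusted p = 0.723). The 95% interval of this log2 fold change, -1.73 to 0.61, holds both no change and a change as large as that of mmu-miR-146b-5p. A difference was thus not detectable with these 6 libraries, which does not show that the level was the same. Counting intervals were wide, with 0.637 to 3.03 RPM (95% Wilson) in J group replicate 1 and 5.08 to 10.2 RPM in M group replicate 3. Without J group replicate 3 the log2 fold change was -1.03 with an unadjusted p of 0.0486 in limma (adjusted p = 0.693), which is a call, as were 5.72% of the 542 miRNAs then tested in this direction, and without J group replicate 1 it was -0.18 (adjusted p = 0.939).

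The spread between mice differed among the miRNAs and can be set beside the counting error. The SD of mmu-miR-146a-5p was 7.75% of the mean in the J group and 71.5% in the M group, where counting alone gives 1.46% to 3.69% for a library. For mmu-miR-146b-5p it was 28.9% and 25.8%, against 2.87% to 5.87% from counting. Without M group replicate 1, the SD of mmu-miR-146a-5p in the M group was 53.0% of the mean. Separate outbred mice vary beyond counting error in any case, so these values are given as a description. For mmu-miR-155-5p the SD was 79.8% in the J group and 37.8% in the M group, and counting alone gives 17.96% to 40.8%. Whether the spread differs between the groups was not tested.

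The 5p arm gave nearly all reads of each hairpin. Over the 6 libraries, miR-146a had 11813 reads from the 5p arm and 10 from the 3p arm, a 5p share of 99.9% (95% Wilson interval 99.84% to 99.95%). miR-146b had 4792 and 4 reads, the same share to the first decimal. miR-155 had 90 reads from its 5p arm and 2 from its 3p arm, a share of 97.8% (92.4% to 99.4%). The arm that is discarded from these hairpins was thus at or near the limit of detection, which at 3 reads is 0.695 to 1.14 RPM. mmu-miR-146a-3p was read 0, 3 and 0 times in J group replicates 1, 2 and 3, and 1, 3 and 3 times in the M replicates. mmu-miR-146b-3p was read 1, 0 and 2 times against 1, 0 and 0 times. mmu-miR-155-3p was found only as 1 read each in M group replicates 1 and 3. None of the 3p arms reached the mean of 1 RPM needed for the test, and no fold is given because both groups lie at or under the limit. The difference seen in the 5p arms could therefore not be looked for in the other arm of the same hairpins.

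By abundance, mmu-miR-146a-5p ranked 92nd to 99th among the mouse miRNAs in the J libraries and 52nd to 79th in the M libraries. mmu-miR-146b-5p ranked 108th to 139th and 83rd to 95th, and mmu-miR-155-5p ranked 303rd to 402nd and 287th to 376th. The order of the levels, mmu-miR-146a-5p above mmu-miR-146b-5p above mmu-miR-155-5p, was the same in all 6 libraries. The 5p arms are nearly equal in length (22 or 23 bases), but adapters for small RNA libraries capture miRNAs unequally, so a ratio between miRNAs is a ratio of reads and not of molecules.

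Within a library, a ratio of reads between these miRNAs is free of how the library was scaled. mmu-miR-146b-5p made up 37.7%, 26.4% and 34.9% of the reads of the shared seed in J group replicates 1, 2 and 3, and 19.8%, 29.6% and 40.4% in M group replicates 1, 2 and 3. The highest and the lowest share were both in the M group, and the counting intervals of these M libraries did not overlap (38.6% to 42.3% and 18.8% to 20.8%, 95% Wilson). The mean shares of 33.0% ± 5.87 (SD, n = 3) and 29.9% ± 10.3 (SD, n = 3) differed by less than the spread between libraries (exact two-sided permutation test, p = 0.7). The direction of the difference in share turned when M group replicate 1 was left out (-1.96 percentage points in place of 3.12).

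The reads of the shared seed were also summed, since both miRNAs are known to act through it. The sum was 379, 306 and 402 RPM in J group replicates 1, 2 and 3, and 2240.0, 1199.7 and 645 RPM in M group replicates 1, 2 and 3. Every M library was above every J library, and the means were 363 ± 50.1 RPM (SD, n = 3) and 1361 ± 810 RPM (SD, n = 3). The mean log2 sum was lower by 1.74 in the J group than in the M group (J minus M -1.74; p = 0.1 by the two-sided exact permutation test, and no smaller p is possible with 3 against 3 libraries). Without M group replicate 1 the difference was -1.29.

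mmu-miR-155-5p was compared with the miR-146 miRNAs by ratios within a library too. There were 103, 32.2 and 20.7 reads of mmu-miR-146b-5p for each read of mmu-miR-155-5p in J group replicates 1, 2 and 3, and 129, 75.6 and 36.1 in the M group replicates. For mmu-miR-146a-5p there were 170, 89.7 and 38.6 reads for each read of mmu-miR-155-5p in the J group replicates and 525, 180.1 and 53.2 in the M group replicates. These ratios overlapped between the groups. For the test, each ratio was taken as log2 of (RPM + 1) of one miRNA over (RPM + 1) of the other, which lowers the ratios to mmu-miR-155-5p below those of the reads, most where this miRNA is rarest. On this scale the log2 ratio of mmu-miR-146b-5p to mmu-miR-155-5p averaged 4.88 ± 0.91 over the J libraries and 5.87 ± 0.83 over the M libraries (SD, n = 3 each), a difference of -0.99 (exact two-sided permutation test, p = 0.2). That of mmu-miR-146a-5p to mmu-miR-155-5p was 5.91 ± 0.78 and 7.14 ± 1.56, a difference of -1.24 (exact permutation test, p = 0.3). Without M group replicate 1 this difference was -0.48, and without M group replicate 3 it was -2.03. The log2 ratio of mmu-miR-146b-5p to mmu-miR-146a-5p was -1.03 ± 0.39 and -1.28 ± 0.73, a difference of 0.25 (exact permutation test, p = 0.7). Adjusted over these 3 ratios, p was 0.45, 0.45 and 0.7 in the same order by the exact test. With 0.1 RPM added in place of 1 RPM, which is closer to the ratio of reads, the differences of the ratios to mmu-miR-155-5p were -0.81 for mmu-miR-146b-5p and -1.06 for mmu-miR-146a-5p (exact permutation test, p = 0.4 for each). With 10 RPM added, which flattens the differences of mmu-miR-155-5p itself, they were -1.30 and -1.59. The exact permutation test then gave p = 0.1 for each, the smallest possible. Thus, although the miR-146 miRNAs were called and mmu-miR-155-5p was not, the data do not show that their differences between the groups are unequal. The differences between single J and M libraries ranged from -2.46 to 0.92 for mmu-miR-146b-5p over mmu-miR-155-5p and from -3.59 to 1.08 for mmu-miR-146a-5p over mmu-miR-155-5p.

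**Figure D2:**
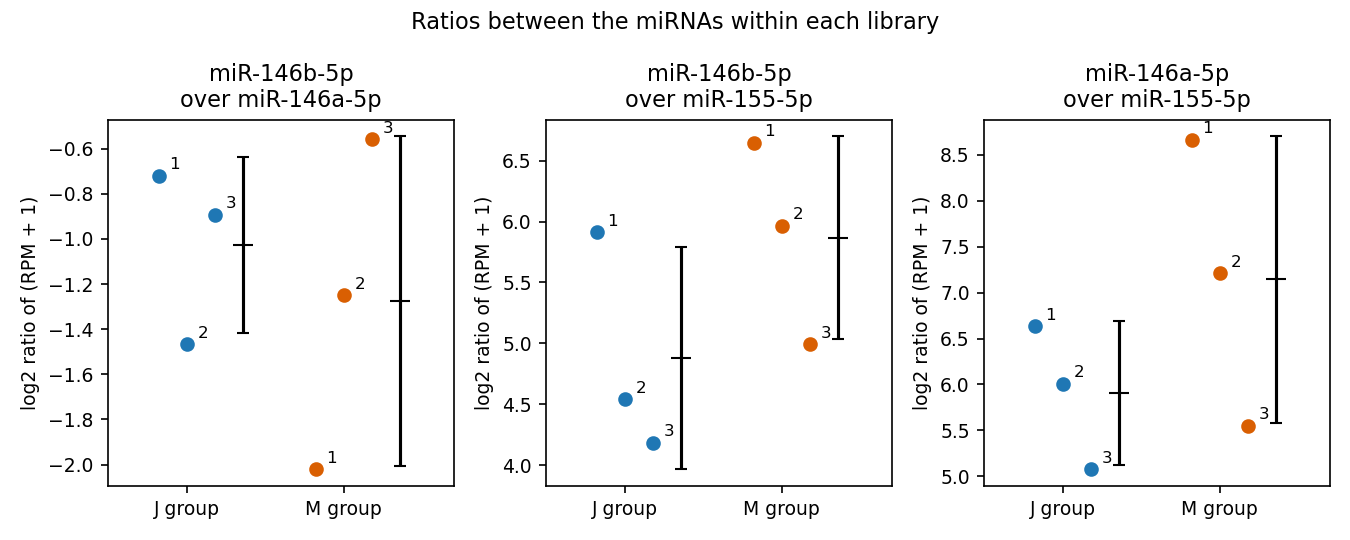
The log2 ratio of (RPM + 1) between the miRNAs within each library, by group, with the replicate number at each point and the mean and SD of the 3 libraries beside them. The groups overlap in all 3 ratios, and the differences between the group means are 0.25, -0.99 and -1.24 from left to right; the vertical axes differ between the panels and do not start at 0.

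The direction of the 5p miRNAs was followed over other ways of processing the same table. mmu-miR-146a-5p and mmu-miR-146b-5p were called lower in the J group under 15 of 15 alternatives each, with log2 fold changes of -2.35 to -1.24 and of -1.74 to -1.23. Their adjusted p ranged from 0.0618 to 0.826 and from 0.0497 to 0.826, and the value of 0.0497, from DESeq2 on the recovered reads, was the only one under 0.05. mmu-miR-155-5p was tested under 14 alternatives and called under 1, the fit without J group replicate 3, with log2 fold changes of -1.03 to -0.17. All of its values were below 0, and the value nearest to 0 came from adding 10 RPM in place of 1 RPM.

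**Figure D3:**
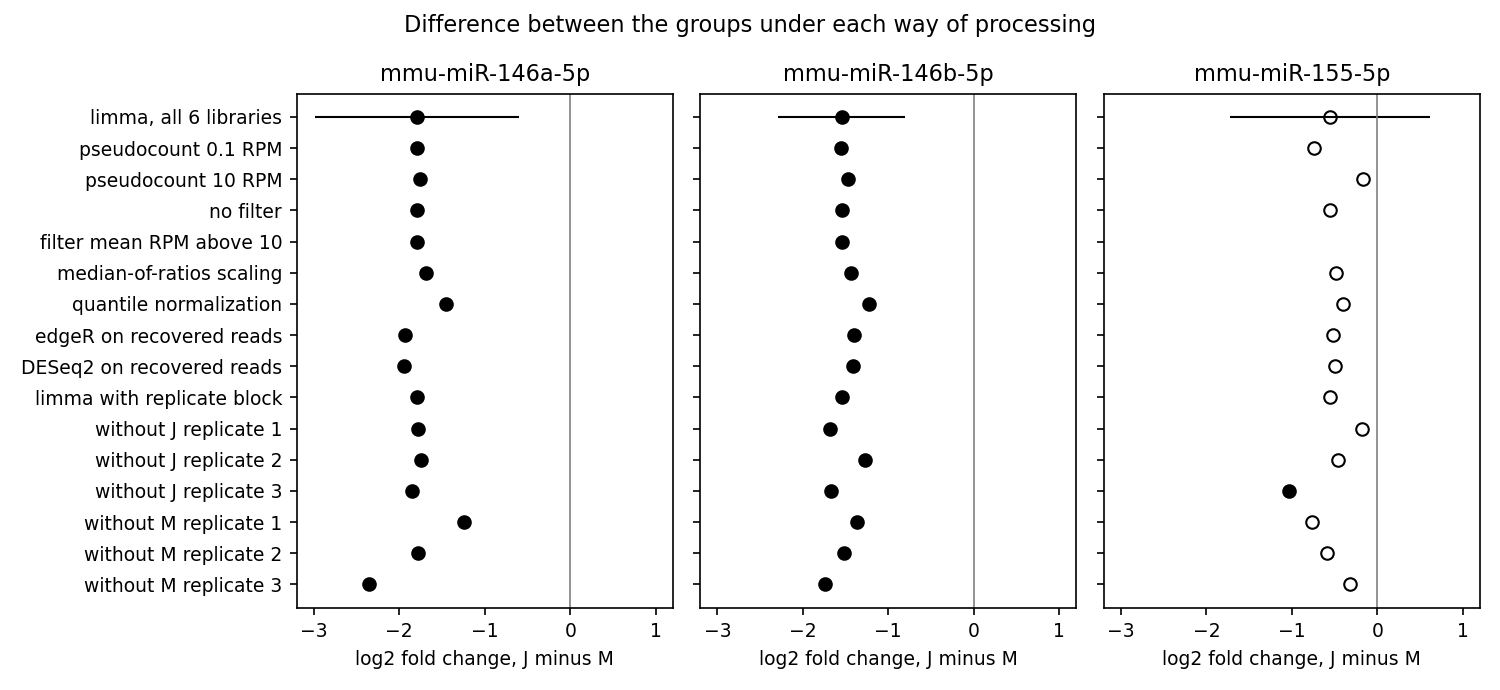
The log2 fold change (J minus M) of each 5p miRNA by limma on all 6 libraries, with its 95% interval, and under each alternative, with filled points where the miRNA was called. mmu-miR-146a-5p and mmu-miR-146b-5p are filled throughout, and mmu-miR-155-5p is filled only without J group replicate 3; it has no point where a mean above 10 RPM was required.

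Other miRNAs known to respond to NF-κB or to endotoxin were described as a list of 17, of which 16 were tested. By limma, edgeR and DESeq2 alike 0 of the 16 were called, where limma called 29 of all 548, so a count of 0 is near the share over all miRNAs. There were 0 at an unadjusted p under 0.05 by any of them. Their median log2 fold change was -0.13, and that of all 548 miRNAs was also -0.13. The list was not split by the direction of the known responses, and opposite changes would cancel in its median. After median-of-ratios scaling the medians were -0.02 and -0.04, and after quantile normalization -0.04 and 0.05, in the same order. mmu-miR-21a-5p, the most abundant of the list and a miRNA known from injured and regenerating liver, averaged 152012 ± 33470.4 RPM (SD, n = 3) in J livers against 130315 ± 19314 RPM (SD, n = 3) in M livers, and its log2 fold change was 0.21 (limma, adjusted p = 0.732). Without J group replicate 2 it was 0.39 and was called higher in the J group (adjusted p = 0.826), which made it the only call of the list in any fit without a library. mmu-miR-27b-3p, of the cluster with miR-23b and miR-24, had 23429.8 ± 1684 RPM in the J mice and 26154 ± 1029 in the M mice (SD, n = 3 each), a log2 fold change of -0.16 (adjusted p = 0.71). It was the 1 of the 16 without overlap between the groups, all J values being below all M values, a share no higher than the 9.31% of all 548 miRNAs. mmu-miR-132-3p and mmu-miR-212-3p, which share a cluster and are known from responses to endotoxin in macrophages, had log2 fold changes of -0.33 (95% interval -1.19 to 0.54) and -0.52 (-1.33 to 0.30) and were not called. The lowest log2 fold changes of the list, also not called, were -0.94 for mmu-miR-301a-3p and -0.71 for mmu-miR-9-5p. mmu-miR-301a-3p had 26.3 RPM in M group replicate 1 and 2.32 to 4.89 RPM in the other libraries. mmu-miR-132-3p, mmu-miR-212-3p, mmu-miR-301a-3p, mmu-miR-9-5p and the members of the next list that were not called are named after their values were seen.

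Markers of leukocytes were looked at beside the miR-146 miRNAs. The 7 miRNAs of this list all had log2 fold changes below 0, with a median of -1.12, and 2 of the 7 were called lower in the J group. Of all 548 miRNAs, 323 were below 0 and 3.83% were called lower. The list held both arms of miR-142a and miR-342 and 1 arm of each other hairpin. The arms left out were looked up after the data were seen and were not called by limma. Their log2 fold changes were 0.42 for mmu-miR-511-5p, -0.43 for mmu-miR-150-3p and -0.52 for mmu-miR-223-5p. The median of the list, and the direction of all its members, therefore depend on which arms were listed. mmu-miR-342-3p, which is known from lymphoid cells, had 185, 58.6 and 242 RPM in the J group replicates and 554, 665 and 304 RPM in the M group replicates (log2 fold change -1.79, adjusted p = 0.643 from limma). Its other arm, mmu-miR-342-5p, had 0 to 1.07 RPM in the J libraries and 1.16 to 5.33 RPM in the M libraries, and was called by limma but by neither edgeR nor DESeq2. Beside mmu-miR-342-3p, edgeR called mmu-miR-142a-3p and DESeq2 called mmu-miR-142a-5p. mmu-miR-142a-5p, which is made throughout the blood cell lineages, had 525, 598 and 761 RPM in the J group and 3709, 683 and 961 RPM in the M group, so that M group replicate 1 alone stood high. The same held for mmu-miR-142a-3p, with 25.3 to 37.1 RPM in the J libraries, 444 RPM in M group replicate 1 and 34.6 and 47.0 RPM in the other M libraries. mmu-miR-223-3p of neutrophils and monocytes (log2 fold change -0.32), mmu-miR-150-5p of lymphocytes (-0.18) and mmu-miR-511-3p of macrophages (-0.04) were not called. The summed level of the list was 782 to 1125 RPM in the J libraries and 1399 to 4810.1 RPM in the M libraries, the highest in M group replicate 1, and 0 of its members were at 0 in every library. Without M group replicate 1 the median was -0.38 and 1 of the 7, mmu-miR-342-3p, was called. This miRNA was also the 1 called without J group replicate 1 and without J group replicate 2, and with any other library left out 2 or 3 were called. The part of leukocytes in the levels of the miR-146 miRNAs was not tested, and in whole liver fewer cells of a type and less RNA per cell cannot be told apart.

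The remaining marker lists place these libraries. The 5 miRNAs of hepatocytes, miR-122 among them, summed to 329507 to 378882 RPM in the J libraries and 333768 to 380650.0 RPM in the M libraries, so that the defining miRNAs of liver were abundant in all, and 0 were called by limma (1 by edgeR, mmu-miR-192-5p). Of the 4 stromal miRNAs found in the table, 3 were called lower in the J group (median -0.51) against 3.83% of all 548 miRNAs, and their sum was 12582 to 16889.6 RPM in the J libraries and 16765 to 25242 RPM in the M libraries, again highest in M group replicate 1. The other of the 5 listed, mmu-miR-199a-3p, had no row of that name. mmu-miR-199b-3p was not on the list, and its log2 fold change was -0.16 (not called by limma). By edgeR and by DESeq2, 1 of the 4 was called lower, mmu-miR-199a-5p, against 4.93% and 4.2% of all. By limma it was also the 1 called of the 4 without J group replicate 2 and without M group replicate 3, and 2 were called with any other library left out. The endothelial miRNA (1 of 2 found in the table) and both red blood cell miRNAs were not called, although mmu-miR-144-3p of red blood cells was called higher in the J group without M group replicate 3, and mmu-miR-192-5p of hepatocytes without M group replicate 2. The part of stromal cells in the miR-146 levels was not tested.

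**Figure D4:**
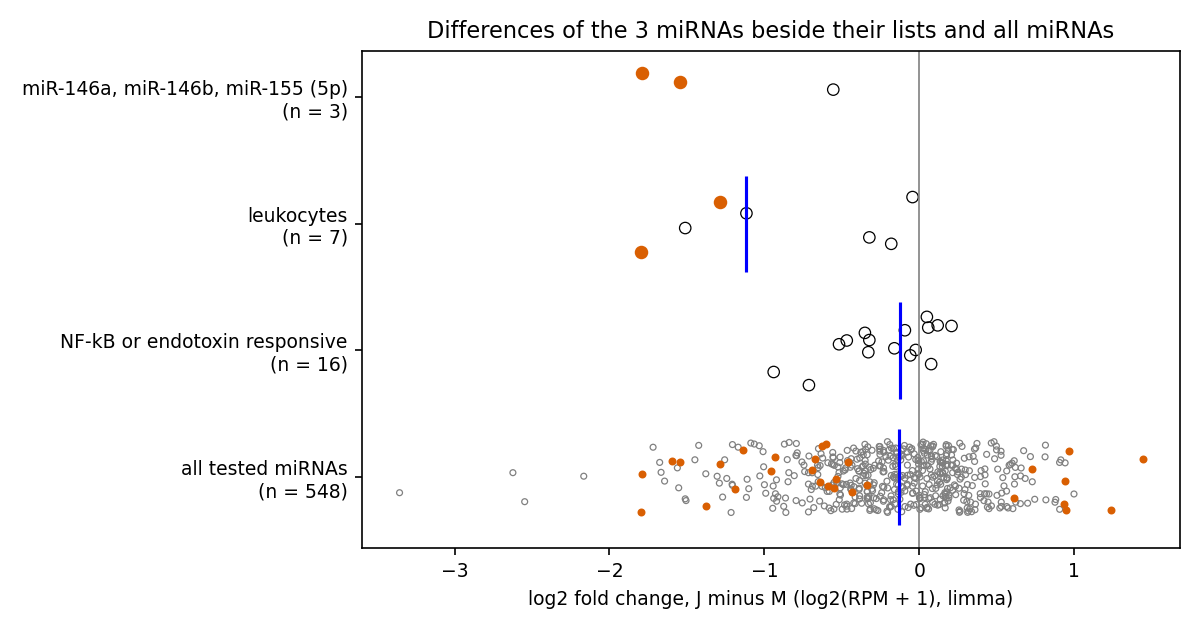
The log2 fold change (J minus M, limma) of the 3 tested 5p miRNAs, the leukocyte list, the NF-κB or endotoxin list and all 548 miRNAs tested, with called miRNAs filled and a blue line at the median of each list with more than 3 miRNAs. The NF-κB or endotoxin list lies around the median of all miRNAs (-0.13), and the miR-146 miRNAs lie far to its left; the vertical scatter within a row has no meaning, and mmu-miR-223-3p is in both lists.

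The miRNAs with the most similar profiles over the 6 libraries were found by the root mean square difference of log2(RPM + 1), each profile centred on its mean, among mouse miRNAs with a mean above 10 RPM. Of the 273 compared with mmu-miR-146a-5p, mmu-miR-146b-5p was the nearest (0.49), followed by mmu-miR-6240 (0.54) and mmu-miR-191-5p (0.54). For mmu-miR-146b-5p the nearest were mmu-miR-191-5p (0.27), mmu-miR-362-5p (0.44) and mmu-miR-342-3p (0.44), and mmu-miR-146a-5p was the 5th. The miR-146 miRNAs were thus close to each other, and closer still to mmu-miR-191-5p in the case of mmu-miR-146b-5p. For mmu-miR-155-5p the nearest of 274 were mmu-miR-486b-3p (0.40), mmu-miR-223-3p (0.41) and mmu-miR-486b-5p (0.44), while mmu-miR-146b-5p was the 221st (0.87) and mmu-miR-146a-5p the 254th (1.18). These distances describe 6 libraries that share the group, the depth and M group replicate 1, and the profile of mmu-miR-155-5p rests on 6 to 31 reads a library.

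**Figure D5:**
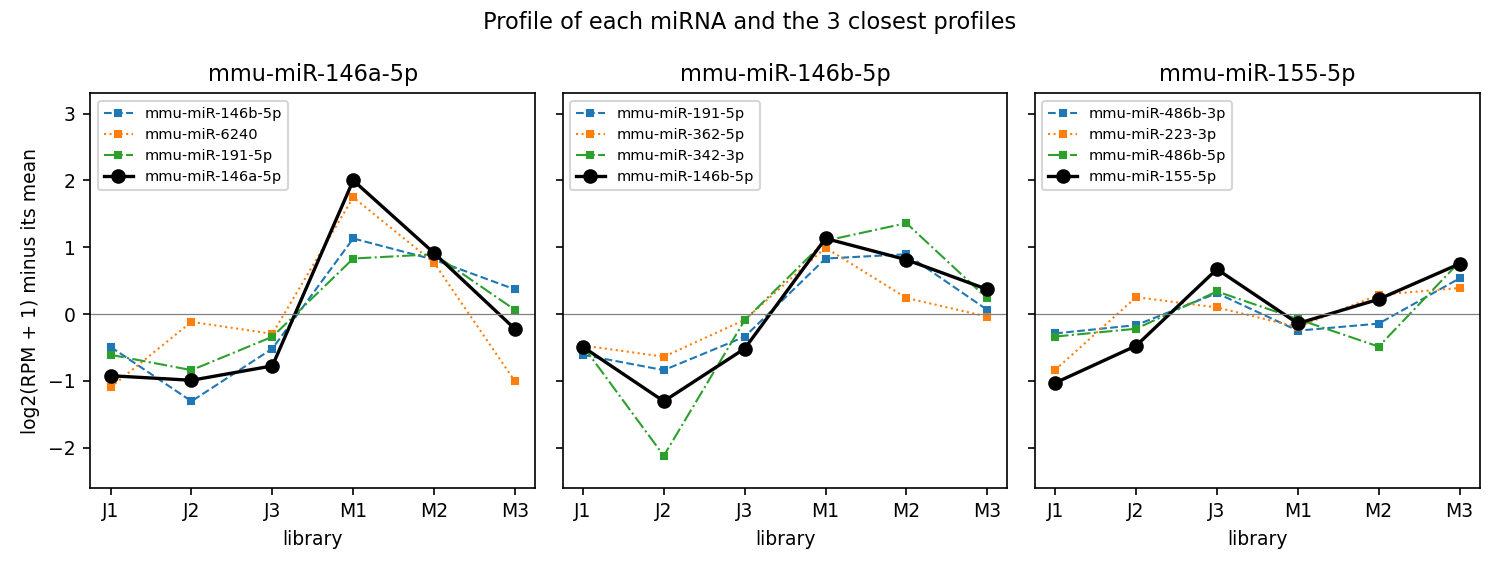
Profiles of the 5p miRNAs (black) and of the 3 miRNAs nearest to each, as log2(RPM + 1) minus the mean over the 6 libraries (J1 to J3, J group replicates; M1 to M3, M group replicates); the lines join libraries of no particular order. The miR-146 profiles are below 0 in the J libraries and highest in M1, and that of mmu-miR-155-5p is highest in M3 and J3.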

How the data were processed

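Liver miRNA was sequenced from 3 mice of the J group and 3 of the M group, taken from the sample titles. From filtered reads, the authors searched miRBase and Rfam with unique reads, and deposited 6 columns of RPM, each summing to 1000000. The aligner and the rule for reads that fit several miRNAs are not given in the sources used here. All values (within 0.01 read) were whole multiples of a single read, so reads were recovered, 2626353 to 4314134 per library. Intervals (95% Wilson) and the limit of 3 reads cover counting error only.

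limma 3.58.1 in R 4.3.3 (eBayes with trend, two-sided) was run on log2(RPM + 1), which draws the fold changes of rare miRNAs toward 0. Ratios, shares and sums used exact permutation tests (scipy 1.17.1, 10 splits). The test was repeated with 0.1 or 10 RPM added, unfiltered or filtered at 10 RPM, scaled by median of ratios or quantiles, with a replicate term, and without each library. The recovered reads were tested with DESeq2 1.42.0 and edgeR 4.0.16. The fits were run on simulated counts as a check of the code. The simulated counts had the same relative spread between mice for every miRNA, and no library set apart. They therefore do not show how the fits behave with the spread of these libraries.

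The miRNAs, the lists (NF-κB or endotoxin responsive, leukocytes, hepatocytes, stromal cells, endothelium, red blood cells) and the tests were chosen with earlier results of these data known. Named were all rows of the 3 hairpins, called list members of the first 2 lists or else the 2 most abundant, and the 3 nearest profiles.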

Additional observations from a re-analysis of the deposited data

How the results depend on the processing

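The calls of mmu-miR-146a-5p and mmu-miR-146b-5p held under all 15 alternatives. When a library was dropped, mmu-miR-146a-5p ranged from -2.35 to -1.24, mmu-miR-146b-5p from -1.74 to -1.28 and mmu-miR-155-5p from -1.03 (without J group replicate 3, called) to -0.18 in log2 fold change. The J minus M difference of the log2 ratio of mmu-miR-146b-5p to mmu-miR-146a-5p ranged from -0.12 to 0.61, and the difference in the share of mmu-miR-146b-5p from -1.96 to 8.37 percentage points. Both turned in direction without M group replicate 1 (-0.12 and -1.96), and in these fits of 5 libraries the exact test cannot give a p below 0.2. The J minus M difference of the log2 ratio to mmu-miR-155-5p stayed below 0, from -1.50 to -0.60 for mmu-miR-146b-5p and from -2.03 to -0.48 for mmu-miR-146a-5p. Of the NF-κB or endotoxin list, 0 to 1 were called. The count of called miRNAs, 29, was 45 with edgeR and ranged from 21 to 46 with a library left out (46 without M group replicate 2). The differences of the log2 ratios to mmu-miR-155-5p moved with the RPM added before the log, from -0.81 (mmu-miR-146b-5p) and -1.06 (mmu-miR-146a-5p) with 0.1 RPM, each with p = 0.4 by the exact permutation test, to -1.30 and -1.59 with 10 RPM, each with p = 0.1. Adding 10 RPM to a miRNA at 1.39 to 7.22 RPM flattens its differences. The causes were not tested.

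The median log2 fold change of all 548 miRNAs was -0.13 as deposited, -0.04 with median-of-ratios scaling and 0.05 with quantiles made equal. Under quantile normalization mmu-miR-146a-5p was at -1.46, mmu-miR-146b-5p at -1.23 and mmu-miR-155-5p at -0.40. The replicate numbers are not known to pair the mice: libraries of the same number correlated at 0.05, 0.06 and -0.01 in their deviations from the group means, and J group replicate 1 correlated best with M group replicate 3 (0.16). With the replicate number as a block, 27 miRNAs were called and the log2 fold changes of the 3 members were as before, with adjusted p of 0.723, 0.723 and 0.725. Depth limits the 3p arms, with 0 to 3 reads. For mmu-miR-155-5p, counting error and spread between mice both enter, and their parts were not tested. The 3p arms were tested only without a filter, and were then not called.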
